A study of Zea mays with 4 samples.

Results

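Among the 18609 maize genes counted in every library, 123 had a raw count of 0 in both libraries of whole leaf and a count of at least 4 in both libraries of protoplasts. These 123 genes, out of 46430 in the annotation, are described here. They were chosen by these counts, so their difference between protoplasts and leaf is the choice itself and is given as a description with no test. Protoplasts are plant cells whose walls have been digested away. The 4 libraries were bulk RNA-seq of polyadenylated RNA from the B73 inbred line, 2 from pools of protoplasts released by enzymes from the distal part of the second leaf of V2 seedlings, and 2 from pools of the same part of intact leaves. All plants were unmodified and grown in the same greenhouse. By the paper's methods, intact leaves were ground in liquid nitrogen when tissue was harvested for protoplasts. Protoplast RNA was taken later, after pretreatment, hours in enzyme solution and repeated washes. The 2 kinds of sample thus also differ in time of day and time since harvest, which cannot be told apart from the release of cells. None of the 4 libraries came from intact leaf kept for the same time. The labels and the methods differ on how many plants made up a pool, and p-values below measure only the spread between these pools.

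Taking a leaf apart wounds it, moves its cells into an osmotic solution and exposes them to wall fragments released by the enzymes. Plants are known to answer such treatments through jasmonate signalling, receptor kinases that sense wall damage at the cell surface, calcium, and transcription factors of the AP2, WRKY, MYB and NAC families, many of which are barely transcribed in undisturbed leaves. The mesophyll, which lies between the veins and the epidermis, is also released from maize leaves more readily than the bundle sheath around the veins.

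Over the shared genes the libraries held 17049307 counts in protoplast 1 and 14976340 in protoplast 2, against 18322950 in leaf 1 and 15838934 in leaf 2. The depth was therefore of the same order in both kinds of sample, and in leaf both totals lay above that of protoplast 2. CPM here is a count scaled with TMM factors to the total over shared genes that passed a filter on low counts. It therefore lies above a CPM scaled to the complete library. A single count was worth 0.0622 CPM in protoplast 1 and 0.0772 in protoplast 2, against 0.0493 in leaf 1 and 0.0571 in leaf 2. A count of 0 in both leaf libraries allows up to 3 counts over the pair, which is 0.0794 CPM, and covers counting error only. Summed CPM of 5 bundle sheath marker genes was 2574 and 2645 in protoplasts, against 49372 and 48421 in leaf, and 4 of the 5 were called lower. The sum of 2 mesophyll markers was 11376 and 10188 in protoplasts, against 8806 and 8794 in leaf, with neither called. The vascular marker SUT1, a sucrose transporter, had 19 and 13 counts in protoplasts, against 18802 and 15269 in leaf, and none of these 8 markers was at 0 in protoplasts. The full lists held 12 bundle sheath and 6 mesophyll genes, and those without a leaf 1 count were left out. Most bundle sheath markers and SUT1 were thus called lower in protoplasts, while the mesophyll markers were not called. The part of these markers' cell types in the results below was not tested. In bulk RNA, fewer cells of a type and less RNA per cell cannot be told apart.

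Most genes without a count in leaf had none in protoplasts either. Of 6994 genes at 0 in both leaf libraries, 6166 (88.2%) were at 0 in both protoplast libraries, 545 had counts in only 1 of them, and 160 had 1 to 3 counts in the lower of the pair. The remaining 123 are the genes described here, 1.76% of those undetected in leaf. Among them, 81 had at least 10 counts in each protoplast library, 54 at least 20, 13 at least 100 and 2 at least 1000. The opposite class was larger, with 255 genes at 0 in both protoplast libraries and at least 4 counts in each leaf library, of which 33 had at least 100 and 4 at least 1000 counts in each. That class made up 3.47% of the 7356 genes undetected in protoplasts. The limits are raw counts, and a single count was worth more CPM in either protoplast library than in either leaf library. The 2 classes were thus not cut at the same level, and the part of this in their sizes was not tested.

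**Figure D1:**
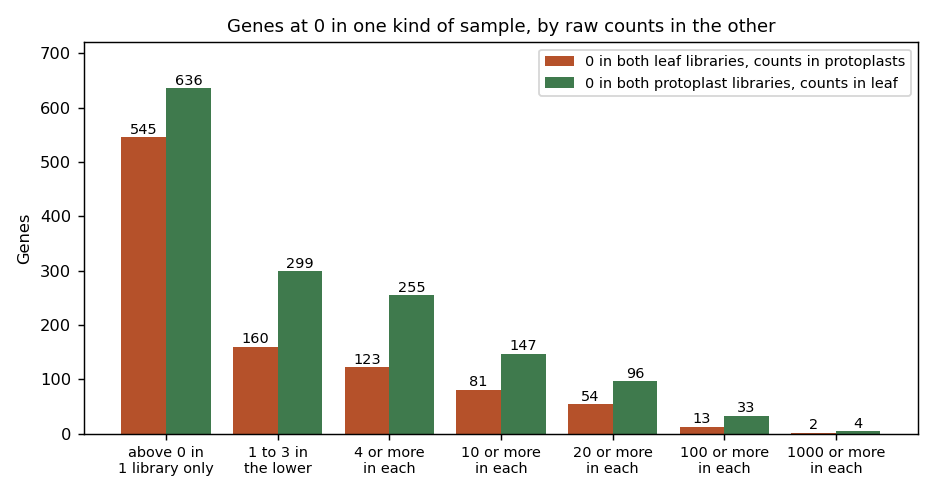
Number of genes (vertical axis) at 0 in both leaf libraries by their protoplast counts (left bars) and at 0 in both protoplast libraries by their leaf counts (right bars), with the last 4 steps nested in the third. From 4 counts upward the left bars show 123, 81, 54, 13 and 2 genes, and the right bars 255, 147, 96, 33 and 4. Counts are raw and not scaled for depth.

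At the edge of the rule, 13 of the 123 genes had exactly 4 counts in at least 1 protoplast library, and 5 of these had 4 counts in both. Just outside it, 17 genes at 0 in leaf had 3 as their lower protoplast count, and the highest count any of them reached in the other library was 13. Only 5 genes at 0 in leaf had at least 10 counts in 1 protoplast library and fewer than 4 in the other. The counts on either side of the limit therefore ran into each other with no gap.

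The 123 genes took a small share of the protoplast RNA. Their counts added up to 11532 in protoplast 1, 0.0676% of the counts over the shared genes, and to 13694 in protoplast 2, 0.0914%. The median gene had 20 counts in protoplast 1 and 17 in protoplast 2, and the range was 4 to 3703 in protoplast 1 and 4 to 3855 in protoplast 2. Mean protoplast level ran from 0.279 to 264 CPM with a median of 1.31 CPM. Per kb of exons the median level was 1.35 CPM, against 8.64 CPM per kb for the 8551 other genes with at least 4 counts in each protoplast library that also had counts in leaf. Mean protoplast CPM was set against the limit of 3 counts over both leaf libraries. It was 3.51-fold above that limit for the lowest gene, 16.5-fold for the median gene and 3326-fold for the highest. On the log2 scale these are 1.81, 4.04 and 11.70. These values are lower bounds that the leaf depth sets, and they follow from the choice of genes. Counting error in protoplasts is left out, so for genes near the minimum of 4 counts the true ratio can be lower.

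A test across genes with edgeR's quasi-likelihood method, with genes called at an adjusted p under 0.05 and a log2 fold change beyond 1, could be made for 80 of the 123. The other 43 did not pass the filter on low counts. All 80 were called higher in protoplasts, where 1770 of 9017 tested genes (19.6%) were called higher. Since a gene at 0 in leaf could pass the filter only through its protoplast counts, nothing is read from this count.

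A pair of genes held over 52% of the counts of the whole set. The highest by CPM, Zm00001d042063 (AGPv4, chr3:149372614-149373300, minus strand, 687 bases in 1 exon), had 3703 and 3855 counts in protoplast 1 and 2, with 0 in both leaf libraries. Its level was 230 and 298 CPM in protoplasts, a mean of 264 ± 47.6 CPM (SD, n = 2), at least 11.70 higher than leaf on the log2 scale. It ranked 739 of 18609 genes by protoplast CPM and alone supplied 32.1% of the counts of the set in protoplast 1 and 28.2% in protoplast 2. Zm00001d005670 (chr2:182831225-182831548, plus strand, 324 bases in 1 exon) had 2299 and 3280 counts in protoplasts and 0 in both leaf libraries. At 611 CPM per kb it was the highest of the 123 genes by length, above the 384 CPM per kb of Zm00001d042063, and its log2 bound was 11.29. Neither gene carries a description in the sources used here, and both have short models without an intron.

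Below this pair the levels dropped steeply. Zm00001d001976 (chr2:3771594-3773923, 3 exon blocks) had 527 and 892 counts in protoplasts with 0 in leaf, which is 32.8 and 68.9 CPM and a log2 bound of 9.32. Zm00001d034435 (chr1:292948271-292948985, 1 exon) had 329 and 547 counts in protoplasts with 0 in leaf, a log2 bound of 8.63. By CPM with TMM scaling, protoplast 2 was more than 2-fold above protoplast 1 in both genes (log2 ratio of protoplast 1 over 2, -1.07 and -1.05). By raw counts both differed less than 2-fold. Their level in protoplasts is known only roughly. The next undescribed genes were closer between the pools. Zm00001d023400 had 242 and 354 counts in protoplasts, Zm00001d005875 had 239 and 268, and Zm00001d042892 had 244 and 258, each with 0 in leaf and with log2 bounds of 8.06, 7.81 and 7.79. A further 7 undescribed genes complete the 15 highest, from Zm00001d003185 with 160 and 182 counts in protoplasts to Zm00001d039785 with 81 and 110, again over 0 in leaf. Only 5 of the 15 had 1 exon block, and 1 of the 15 was described in words. The 10 highest of the 123 genes held 71.1% of the counts of the set in protoplast 1 and 74.1% in protoplast 2, and the top 20 held 79.7% and 82.5%.

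**Figure D2:**
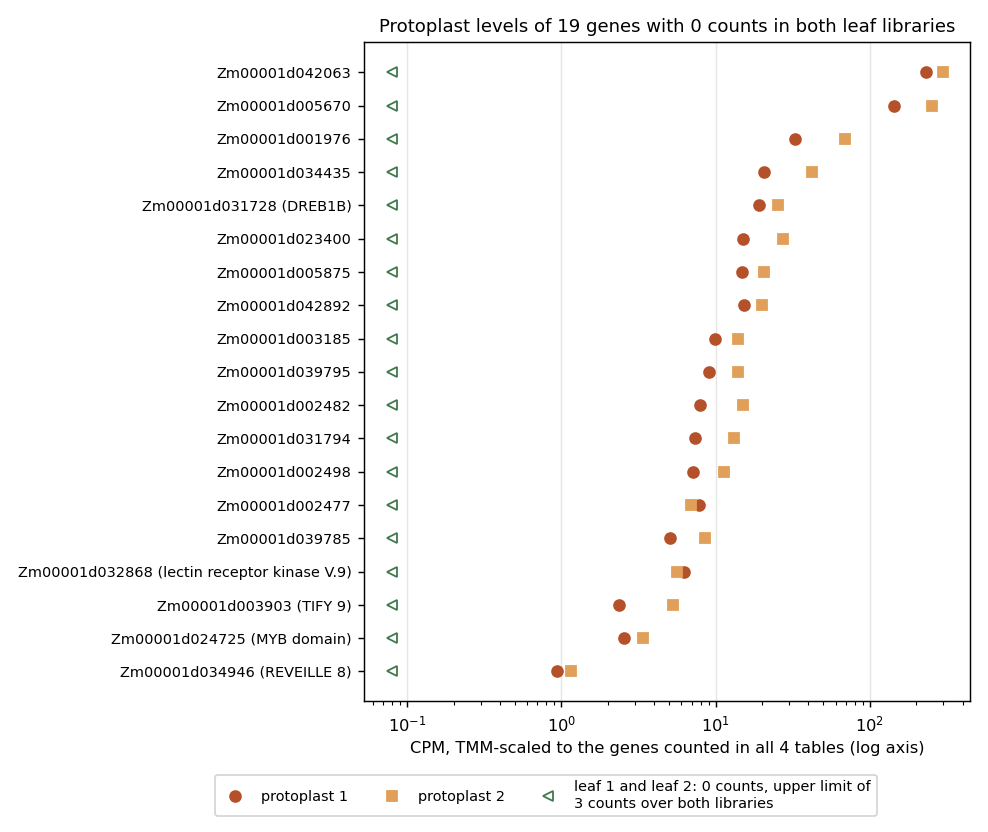
CPM on a log axis of the 15 genes highest in protoplasts and the 4 further described genes, with circles for protoplast 1, squares for protoplast 2, and open triangles for the limit of 0.0794 CPM that 0 counts in both leaf libraries allow. Zm00001d042063 and Zm00001d005670 stand apart at 143 to 298 CPM, and REVEILLE 8 is lowest at 0.933 and 1.16 CPM.

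Descriptions were available for 5 of the 123 genes. The rest are known here by identifier only, since 116 do not appear in the tables that gave descriptions and 2 appear in them without words. Described genes were rarer here (4.07%) than among the 8551 genes detected in both kinds of sample (13.4%), while the share over all shared genes was 6.27%. The tables were drawn up from expression in these or related libraries, so the descriptions cover a chosen part of the genes.

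The highest of the 5 by CPM was Zm00001d031728, Dehydration-responsive element-binding protein 1B (chr1:199720829-199721512, minus strand, 684 bases, 1 exon). In Arabidopsis and rice, DREB1 proteins, also called CBF, are AP2-domain activators of cold- and drought-responsive genes that are themselves switched on within a short time of the stress. It had 306 and 328 counts in protoplasts and 0 in both leaf libraries. The level was 19.0 and 25.3 CPM in protoplasts, a mean of 22.2 ± 4.45 CPM (SD, n = 2), and at least 8.13 above leaf on the log2 scale. It was 5 of 123 in the order of protoplast CPM, and its counts lay far above the minimum of 4.

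Zm00001d024725, a putative MYB DNA-binding domain protein (chr10:85285499-85286719, 1 exon), had 41 and 44 counts in protoplasts and 0 in leaf, with a log2 bound of 5.23. MYB proteins are a large plant family of transcription factors with roles that range from pigment synthesis to stress responses. Zm00001d034946, Protein REVEILLE 8 (chr1:306417753-306418649, plus strand, 1 exon), had 15 and 15 counts in protoplasts and 0 in leaf, a mean of 1.05 ± 0.16 CPM (SD, n = 2) and a log2 bound of 3.72. In Arabidopsis, REVEILLE 8 is a MYB-like activator of evening genes in the circadian clock. Leaf and protoplast RNA were taken at different times of day, and any part of that in these counts was not tested. The REVEILLE 8 model overlaps Zm00001d034947 on the same strand, which had 0 counts in all 4 libraries. How reads in a shared stretch were counted is not given in the sources used here.

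Zm00001d003903, Protein TIFY 9 (chr2:66485018-66487506, minus strand, 4 exon blocks), had 38 and 69 counts in protoplasts and 0 in both leaf libraries, which is 2.36 and 5.33 CPM in protoplasts and a log2 bound of 5.60. TIFY proteins of the JAZ group are repressors of jasmonate signalling, and their genes are in turn induced by jasmonate in Arabidopsis. Zm00001d032868, L-type lectin-domain containing receptor kinase V.9 (chr1:240895269-240897329, minus strand, 2061 bases, 1 exon), had 100 and 73 counts in protoplasts and 0 in leaf, 6.22 and 5.64 CPM in protoplasts and a log2 bound of 6.22. Kinases of this family sit in the plasma membrane with a lectin domain outside the cell, and several take part in defence in Arabidopsis. It was the only described gene of the 5 with a lower CPM in protoplast 2 than in protoplast 1.

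Other described genes on the shared chromosomes that carry the same family name were found for TIFY 9 and for the MYB gene, and all of them had counts in leaf. TIFY 10B had 13719 and 15229 counts in protoplasts, against 2787 and 2214 in leaf, and was called higher (log2 fold change 2.94, SE 0.20, edgeR adjusted p = 5.531e-05). The tify domain gene Zm00001d026477 had 2504 and 3169 counts in protoplasts, against 1760 and 1507 in leaf, and was also called higher (log2 fold change 1.21, SE 0.22, edgeR adjusted p = 0.00371). TIFY 6B had 740 and 772 counts in protoplasts, against 761 and 507 in leaf, and was not called, with a log2 fold change of 0.67 (SE 0.19) under the limit on fold change. Among these 4 described TIFY genes, TIFY 9 was the 1 without leaf counts and had the fewest counts in protoplasts, and TIFY genes without a description are not covered. Of 5 other described MYB genes, myb domain protein 15 was called higher with 384 and 402 counts in protoplasts, against 159 and 106 in leaf. MYB48 was called lower, with 37 and 19 counts in protoplasts, against 1972 and 1609 in leaf. A myb-like gene, Zm00001d039492, was also called lower with 328 and 268 counts in protoplasts, against 1574 and 1295 in leaf, and the other 2 were not called.

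Among the 1167 described genes on the shared chromosomes, words in the descriptions placed 91 under stress and defence, of which 52 were called higher and 10 lower, with a median log2 fold change of 1.60. TIFY 9 is one of these 91. Of 63 genes described as transcription factors, 33 were called higher and 11 lower (median 1.07), and the MYB gene Zm00001d024725 is one of them. Of 71 kinases and receptors, 34 were called higher and 8 lower (median 0.71), the lectin receptor kinase among them. The words caught neither DREB1B, whose description names a dehydration response and element binding, nor REVEILLE 8. The lists are therefore incomplete. Since only 5 of the 123 genes carry a description, the lists say little about the set. None of these 5 fell among 17 cell wall genes (5 called higher and 5 lower, median 0.16), 52 transport genes (14 and 25, median -0.86), 230 enzymes of metabolism (81 and 36 of 229 tested, median 0.32) or 44 genes of protein turnover (15 and 6, median 0.36). Over all described genes 374 of 1162 tested were called higher and 185 lower, with a median of 0.37. Over all 9017 tested genes 1770 were called higher and 2110 lower. The descriptions come from tables drawn up partly from this contrast, so the counts of the lists are not independent of it.

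Gene models of the 123 genes were more often undivided and shorter than those of genes detected in both kinds of sample. A single exon block made up the model of 60 of them (48.8%), against 1434 of the 8551 genes detected in both kinds of sample (16.8%). At least 5 exon blocks were present in 17 (13.8%), against 47.8% of the 8551. Median exonic length was 1138 bases, against 1923 bases. Median protoplast level differed too, at 1.31 CPM against 18.8 CPM in the 8551. Within the 8551, single-block genes had a median of 7.47 CPM, and genes with more blocks 22.0 CPM. No group of like level was compared. Over all 18608 shared genes reported here, 30.0% had a single block, 33.6% had at least 5, and the median length was 1203 bases, so in length the 123 genes lay close to the annotation as a whole. Like shares were present in other classes of genes with zeros. In the opposite class, at 0 in protoplasts, 102 of 255 models had a single block (40.0%) with a median length of 1213 bases, and among the 6166 genes at 0 in all libraries 2827 had a single block (45.8%) with a median length of 576 bases.

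Lengths divisible by 3, as a bare coding sequence has, were common among the 123 genes. Of the 60 single-exon models, 53 (88.3%) had such a length, against 87.4% of the 1434 single-exon genes detected in both kinds of sample, 86.3% of the 102 in the opposite class and 46.1% of the 2827 at 0 in all 4 libraries. Of the 63 models with several exon blocks, 34 (54.0%) had such a length, against 35.7% of those detected in both kinds of sample, 34.0% in the opposite class and 54.9% of those at 0 in all 4 libraries. Whether the models hold untranslated ends was not looked at. The 63 genes with several exon blocks had a median protoplast level of 1.06 CPM per kb, and the 60 with a single block 1.84 CPM per kb.

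**Figure D3:**
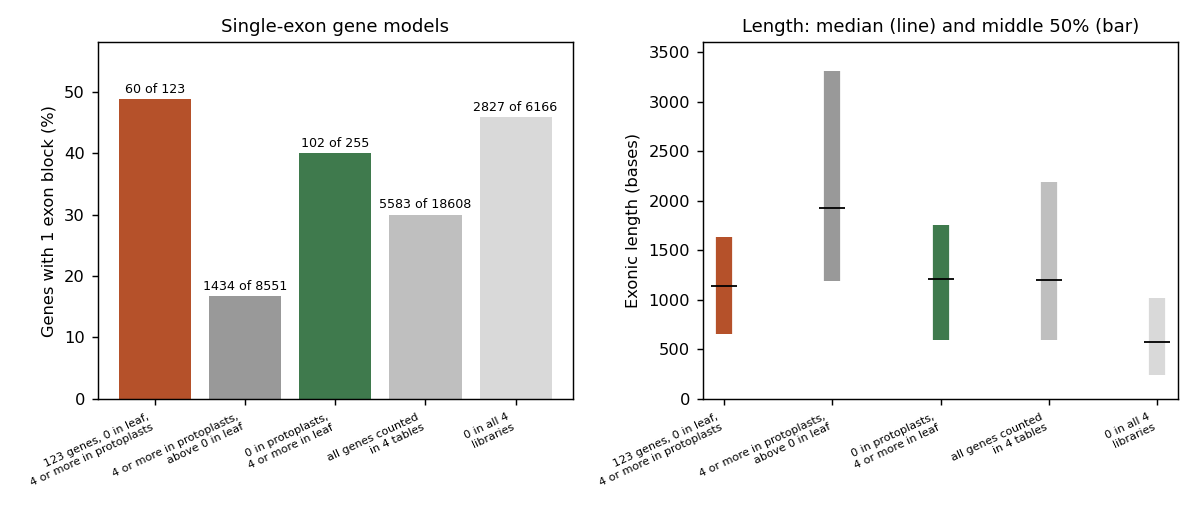
Share of genes whose model is a single exon block (left) and exonic length in bases as median and middle 50% (right), for the 123 genes and 4 other groups. The 123 genes (60 with 1 block, median length 1138 bases) lie near the opposite class (102 of 255, 1213 bases) and apart from genes detected in both kinds of sample (1434 of 8551, 1923 bases). The groups were not matched for level.

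The shortest of the 123 models was Zm00001d005512 (chr2:176915776-176915855, 80 bases), with 39 and 80 counts in protoplasts and 0 in leaf, which gave 53.8 CPM per kb, the third highest. A model this short is below the range of fragments selected for the libraries, so the fragments counted there extended beyond it. The longest was Zm00001d003825 (chr2:61099310-61125886, 6893 bases, 25 exon blocks), which had 11 and 10 counts in protoplasts and 0 in leaf and, at 0.106 CPM per kb, the lowest level by length. Other short genes with a high level per kb were Zm00001d002468 (312 bases, 76 and 75 counts in protoplasts), Zm00001d030180 (393 bases, 113 and 49), Zm00001d031189 (384 bases, 99 and 56) and Zm00001d031985 (498 bases, 94 and 82), all with 0 in leaf. These 4 reached 12.2 to 16.9 CPM per kb.

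The levels of the 123 genes in the 2 protoplast pools followed each other. Pearson's r of log2 CPM between the pools was 0.93 across the 123 genes, which share both libraries and were chosen for having counts in both, and genes are not independent replicates. By CPM, 88 of the 123 were higher in protoplast 2, and the median log2 ratio of protoplast 1 over protoplast 2 was -0.37, with the middle 50% from -0.79 to 0.14. By raw counts 63 were higher in protoplast 2, 51 in protoplast 1 and 9 equal. The same lean was present in the 1689 other genes called higher in protoplasts with at least 4 counts in each pool (median -0.39, 85.9% higher in protoplast 2). It was absent from 5078 genes with no call (median 0.01), and 1534 genes called lower leaned the other way (median 0.16). These calls used the same protoplast libraries, so the groups are set side by side as a description.

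**Figure D4:**
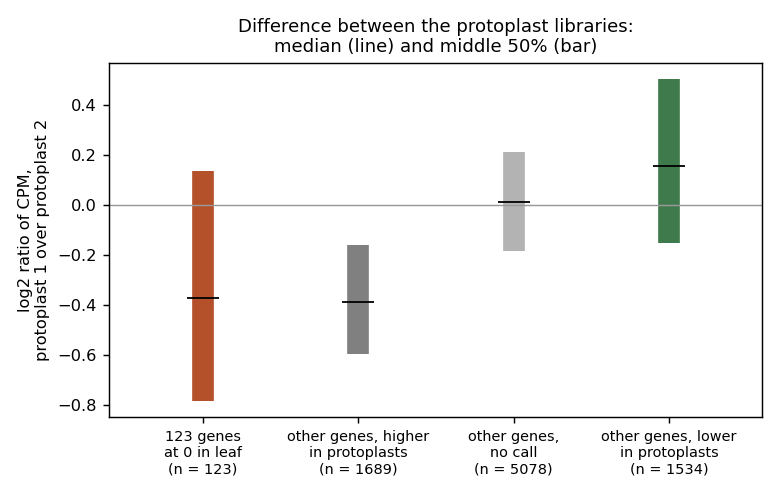
Log2 ratio of CPM in protoplast 1 over protoplast 2, as median (line) and middle 50% (bar), for the 123 genes and for other genes by their call, with at least 4 counts in each protoplast library. The medians are -0.37 for the 123 genes, -0.39 for other genes called higher, 0.01 for genes with no call and 0.16 for genes called lower.

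The pools disagreed most where counts were few. Of the 42 genes with fewer than 10 counts in a protoplast library, 14 differed more than 2-fold between the pools (33.3%), against 9 of the 81 with at least 10 in each (11.1%). Among these 81 the extremes toward protoplast 2 were Zm00001d041981 (19 and 69 counts in protoplast 1 and 2), Zm00001d032392 (16 and 44) and Zm00001d023535 (21 and 55), with log2 ratios of -2.17, -1.77 and -1.70. Toward protoplast 1 they were Zm00001d030180 (113 and 49), Zm00001d041908 (53 and 23) and, at the same ratio, Zm00001d006150 (20 and 10) and Zm00001d030177 (34 and 17), with log2 ratios of 0.89, 0.89, 0.69 and 0.69. All 7 had 0 counts in both leaf libraries and a model of 1 or 3 exon blocks.

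**Figure D5:**
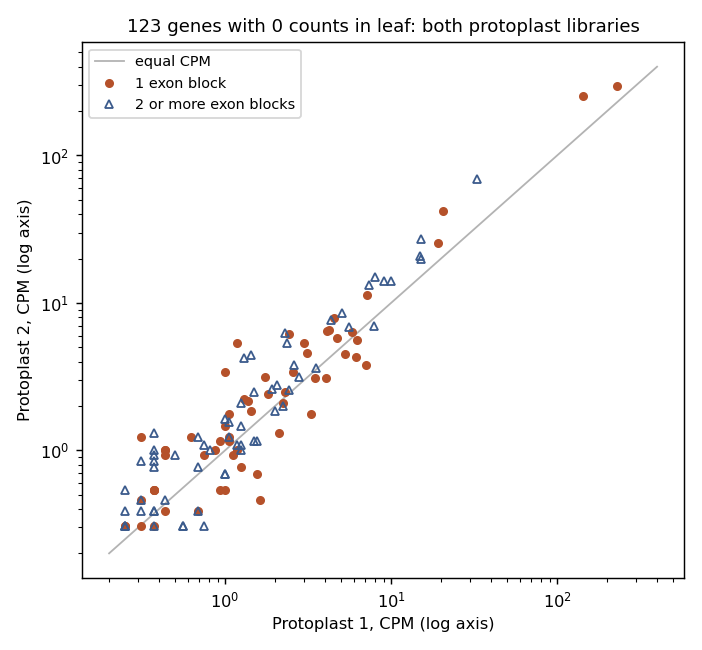
CPM in protoplast 1 (horizontal) and protoplast 2 (vertical) for the 123 genes on log axes, with circles for models of 1 exon block, triangles for more, and a line of equal CPM. Of the 15 genes highest by CPM, 14 lie above the line, as do 88 of the 123.

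The 123 genes were spread over the chromosomes with counts in all libraries. Chromosome 1 held 45 of them (0.662% of its genes), chromosome 2 held 46 (0.803%), chromosome 10 held 18 (0.566%) and the covered part of chromosome 3 held 14 (0.482%). The plus strand carried 58. The median distance to the nearest annotated gene was 4074 bases, against 2893 bases for the 8551 genes detected in both kinds of sample and 8098 bases for the opposite class. Another gene overlapped 3 of the 123 (2.44%), against 9.44% of the 8551. Besides REVEILLE 8, these were Zm00001d031189, which shares bases with Zm00001d022868 on its own strand (46 and 38 counts in protoplasts, against 1 and 0 in leaf), and Zm00001d032805 (9 and 4 counts in protoplasts, 0 in leaf), which shares bases with the opposite-strand Zm00001d032804 (844 and 786 counts in protoplasts, against 446 and 465 in leaf). Whether counting used strand is not given in the sources used here, so reads of these pairs cannot be told apart.

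Most of the genes had no other of the 123 beside them. Allowing 1 gene in between, 13 lay in 6 runs and 110 lay alone. Of the 246 positions directly beside the 123 genes, 10 were filled by another of them. That share is above the 123 of 18609 that the set makes up among shared genes, and it was not tested. The only run of 3 was Zm00001d030176, Zm00001d030177 and Zm00001d030180 on chromosome 1 between 110660706 and 110826168, with 22 and 28, 34 and 17, and 113 and 49 counts in protoplast 1 and 2. All 3 were single-exon models with 0 in leaf. The gene between them, Zm00001d030179, had 1 and 7 counts in protoplasts, against 3 and 7 in leaf. The 5 runs of 2, all with 0 in leaf, were Zm00001d007893 (23 and 24 counts in protoplasts) with Zm00001d007894 (36 and 27), Zm00001d031188 (6 and 17) with Zm00001d031189 (99 and 56), Zm00001d023412 (17 and 15) with Zm00001d023413 (11 and 5), Zm00001d022796 (7 and 5) with Zm00001d022797 (5 and 16), and Zm00001d024850 with Zm00001d024851. The last pair had 7 and 13 counts each, the same in both genes. Whether neighbours of this kind are copies that share reads could not be looked at without their sequence, so their counts are uncertain.

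On a wider scale, chosen after the positions were seen, joining genes less than 1 Mb apart gave 6 stretches with at least 3 of the 123 genes, which held 22 of them. The fullest lay on chromosome 2 between 13393684 and 14926277, with 5 of its 65 annotated genes. These were Zm00001d002468, Zm00001d002477, Zm00001d002482, Zm00001d002498 and Zm00001d002536, and 3 of them were among the 15 highest in protoplasts (128 and 195 counts in Zm00001d002482, 115 and 147 in Zm00001d002498, 126 and 90 in Zm00001d002477). Of 24 other tested genes in that stretch, 7 were called higher (29.2%). A stretch of 12 annotated genes on chromosome 10, from 4731068 to 5038986, held Zm00001d023400, Zm00001d023412 and Zm00001d023413, and all 4 of its other tested genes were called higher. In 3 further stretches 2 of 12 (16.7%), 9 of 39 (23.1%) and 2 of 5 (40%) other tested genes were called higher, against 19.6% of all tested genes, and the remaining stretch had no other tested gene.

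Genes next to the 123 were called higher more often than genes at large, by a description without a test. The nearest annotated gene on each side gave 117 distinct tested neighbours outside the set, of which 37 were called higher (31.6%) and 17 lower (14.5%), against 19.6% and 23.4% of all tested genes. The median log2 fold change of these neighbours was 0.16, against -0.02 for all genes tested. Their own counts were not used in the choice of the 123 genes. However, Zm00001d022868 and Zm00001d032804 share bases with genes of the set, and the reads cannot be told apart. The 37 formed 38 pairs with the 123 genes, since Zm00001d022868 lies beside 2 of them. In 20 of these pairs both genes lay on the same strand, and the median gap over the 38 pairs was 4055 bases. The gap was under 1000 bases in 9 of the 38 pairs. Any part of shared reads in these calls was not tested.

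Of the 37 neighbours, 11 carry a description, and 4 of these, chosen after their values were seen, are given here. Beside Zm00001d029358 (6 and 11 counts in protoplasts, 0 in leaf), at a gap of 11054 bases, lay benzoxazinone synthesis10, whose family makes defensive benzoxazinoids in grasses, with 7660 and 10540 counts in protoplasts, against 3 and 0 in leaf. Beside Zm00001d031797 (57 and 47 counts in protoplasts, 0 in leaf), at 66434 bases, lay the AP2 domain gene Zm00001d031796 with 26132 and 25829 counts in protoplasts, against 29 and 14 in leaf (log2 fold change 10.64, edgeR adjusted p = 5.88e-06). Only 371 bases from Zm00001d002477 lay Zm00001d002478, NDR1/HIN1-like 8, named for a family with roles in disease resistance, with 7633 and 9616 counts in protoplasts, against 555 and 427 in leaf (log2 fold change 4.56). DREB1B itself stood 2186 bases from a sorbitol dehydrogenase gene, Zm00001d031727, with 22462 and 22494 counts in protoplasts, against 6740 and 5767 in leaf (log2 fold change 2.24). The other 7 were described as an auxin-induced protein, a protein phosphatase 2C, a chloroplastic protein kinase, thioredoxin M3, an aminocyclopropane carboxylate oxidase, a SAR1B GTP-binding protein and a UDP-glycosyltransferase, all called higher. The auxin-induced gene had 462 and 413 counts in protoplasts, against 1 and 2 in leaf, and the log2 fold changes of the other 6 ran from 2.08 to 4.75.

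The rule of 0 counts left out genes with nearly the same pattern at far higher levels. With 1 or 2 counts over both leaf libraries and at least 4 in each protoplast library, 104 further genes came close. The 5 highest had more counts in each protoplast library than any of the 123. Zm00001d033049 (chr1:248522876-248523364, 1 exon) had 16991 and 19213 counts in protoplasts, against 0 and 1 in leaf. Zm00001d025614, a putative IQ calmodulin-binding and BAG domain protein, of a kind that links calcium signals to chaperones, had 7005 and 7375 counts in protoplasts, against 0 and 1 in leaf. Zm00001d042098, Glutathione S-transferase U16, from a family that detoxifies reactive compounds, had 5396 and 7767 counts in protoplasts, against 1 and 0 in leaf. The undescribed Zm00001d033999 had 5063 and 6064 counts in protoplasts, against 1 and 1 in leaf, and Zm00001d007489 had 4904 and 5051, against 1 and 1 in leaf. Such genes differ from the 123 by 1 or 2 leaf counts.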

How the data were processed

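The values deposited by the authors are raw, unnormalized counts of reads per AGPv4 gene, made with Trim Galore 0.6.5, STAR 2.5.1b and featureCounts 2.0.1. Settings for strand and multi-mapped reads are not given in the sources used here. The leaf 1 table used here ends within chromosome 3 (last position 193755817) with 10 damaged or cut lines, so 18609 genes had 4 counts. Total counts of the complete libraries were 47061988 (protoplast 1), 42815615 (protoplast 2) and 41792981 (leaf 2).

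Computed here in R 4.3.3 were edgeR 4.0.16 quasi-likelihood tests (filterByExpr with a minimum count of 10, robust, no block, Benjamini-Hochberg over 9017 genes). TMM factors and totals came from these 9017 genes, and CPM of all 18609 genes was scaled to them. In a simulation with the same dispersion for all genes, 200 of 9017 genes were changed 4-fold, as many up as down. The fit recovered 192 of them. In the data 3880 genes were called, so the simulation does not show how well the fit does there. Lower bounds divide the mean protoplast CPM by 3 counts over both leaf libraries and leave out counting error in protoplasts. Exon blocks are merged exon intervals of the deposited annotation.

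The 123 genes, the lists and the alternatives were chosen with earlier results of these data known. Genes were named by a rule: the 15 highest by CPM, the next 5 by CPM per kb, all described, the 3 largest and smallest pool ratios with at least 10 counts in each, runs, the longest and shortest, and 5 genes with 1 or 2 leaf counts. Other names were chosen after their values were seen. Descriptions come from the study's tables, as 0 identifiers matched the RefSeq table. 1 gene is not reported here.

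Same-numbered libraries did not deviate together (r = -0.208 across genes, pseudocount 0.5), so the numbers were not taken as pairs. Alternatives were other scalings, filters, limits and tools (limma-voom with limma 3.58.1, DESeq2 1.42.0), a replicate block, and leaving out each library.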

Additional observations from a re-analysis of the deposited data

How the results depend on the processing

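The number of genes in the set depended on the limits: it was 140 with a minimum of 3 protoplast counts, 81 with 10, 54 with 20, and 202 with up to 1 count allowed in each leaf library. With 1 library left out it lay between 154 and 183 (183 without leaf 1, 180 without leaf 2), so which genes count as undetected rests on each leaf library. The median log2 bound of 4.04 became 3.74 with library totals in place of TMM and 3.04 with 3 counts allowed in each leaf library, and lay between 2.93 (without leaf 1) and 4.05 (without protoplast 1) with 1 library left out. The median log2 ratio between the protoplast pools stayed between -0.41 and -0.25 under the alternatives tried.

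Every tested gene of the set was called higher in each setting, so the number called counts only the genes that passed the filter. Nothing is read from it. It was 80 in the main fit, 123 without a filter, because all were then tested, and 101 with a minimum count of 4. With 1 library left out the number was 72 to 101. Over all genes, the 1770 called higher became 2802 without a fold change limit, and 1582 to 1885 with 1 library left out, where a lone library is assumed to vary like the other group. Library totals gave 1458 higher and 2596 lower, against 1770 and 2110 with TMM, and moved the median log2 fold change of all genes to -0.32, from -0.02. The other scalings, filters and tools tried gave 1719 to 1856.

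The replicate block by the numbers in the labels gave 1731 genes higher over all tested genes. Pairs crossed after the negative correlation was seen gave 1774. All 80 tested genes of the set were called in both fits, which follows from how the set was chosen. At this depth, a leaf level under 0.0794 CPM cannot be told from 0.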

Other observations

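For the 27821 genes outside the shared part, leaf was represented by leaf 2 alone, without a replicate. Of these, 281 (1.01%) had 0 counts in leaf 2 and at least 4 counts in each protoplast library. They lay mainly on chromosomes 4 to 9, with 7 mitochondrial genes among them. The same rule with leaf 2 alone gave 183 of the shared genes (0.983%), of which 123 (67.2%) were also at 0 in leaf 1. Another 31 had 1 count in leaf 1, and the highest leaf 1 count among the 183 was 9. Of the 281 genes, 56 had at least 100 counts in each protoplast library and 122 (43.4%) had a single exon block, against 30.3% of the 27821.

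A description was available for 25 of the 281, and the genes named here were chosen after their values were seen. All had 0 in leaf 2. Zm00001d043740, described as Mitogen-activated protein kinase kinase kinase YODA, a kinase of stomatal patterning in Arabidopsis, had 8447 and 11152 counts in protoplasts. The RING zinc finger gene Zm00001d052189 had 3554 and 4639, the carboxylic ester hydrolase gene Zm00001d036234 had 3481 and 4246, and the WRKY gene Zm00001d046805, from a family of defence regulators, had 1510 and 3166. The mitochondrial ADP/ATP carrier gene Zm00001d045884 had 1958 and 2657, and the esterase gene Zm00001d014244 had 1596 and 1383. A tify domain gene, Zm00001d048268, had 1083 and 1551 counts in protoplasts, where TIFY 9 had 38 and 69. The AP2/EREBP genes Zm00001d052167, Zm00001d038320 and Zm00001d038216 had 670 and 595, 611 and 633, and 394 and 454 counts in protoplasts. The zinc finger gene ZAT11 (Zm00001d012427) had 392 and 654. The other 14 ranged from an UPSTREAM OF FLC gene (1066 and 1339) to a neomenthol dehydrogenase gene (16 and 10), and included a cinnamyl alcohol dehydrogenase, a laccase, a malic enzyme, a chlorophyllase and a peroxidase.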
